A study of Saccharomyces cerevisiae with 91 samples.

Results

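Budding yeast lacking part of the histone H4 tail (H4d4-14) was compared with yeast carrying a substitution at the base of that tail (H4R23A). The comparison took every library with either label, 4 of H4d4-14 and 4 of H4R23A out of 91 samples in the series, and summed repeat libraries, which left 2 replicates of each strain. A single library of a strain labelled H4-WT, whose label gives S288C with H3 and H4 on a plasmid, served as reference, and 16 replicates of BY4741 wild type grown at 30 °C gave the ordinary spread. The mutants' own labels give only the H4 mutation, and do not say how many clones were used. All cultures grew to mid-log phase in YPD at 30 °C.

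The H4 tail is a flexible, positively charged arm that leaves the nucleosome and can touch the acidic patch on the H2A and H2B surface of a neighbouring nucleosome. In budding yeast it is also known for binding the silencing protein Sir3 at telomeres and at the silent mating loci. Deleting residues 4 to 14 removes much of the arm but keeps its basic base. The R23A substitution exchanges 1 arginine of that base for alanine. Micro-C ligates nucleosome ends that lie close together after crosslinking and digestion with micrococcal nuclease, so pairs of reads in the same direction report ligation between nucleosomes, whereas pairs that face each other (IN-IN) can also come from DNA that was never ligated.

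The chromosomal H3 and H4 genes were examined first, as reads within the gene in 1 pooled column per strain, relative to BY4741 and to the median of all nuclear genes. HHF1, which encodes H4 (chromosome II, 255373 to 255684 in sacCer3), held 1.37% of the wild-type level in H4R23A (17 reads, exact Poisson 95% interval 0.798 to 2.19%) and 14.5% in H4d4-14 (130 reads, 12.1 to 17.2%). Its partner HHT1, an H3 gene, held 1.44% and 15.2% in the same order. HHF2, the other H4 gene, held 4.34% in H4R23A and 15.2% in H4d4-14. HHT2 held 17.8% and 27.9%. Some other marker genes differed in the same way. LYS2, a lysine synthesis gene, stood at 0.0611% in H4R23A (8 reads) and 10.0% in H4d4-14 (951 reads). CAN1, the arginine permease gene, stood at 1.87% and 12.5%, and TRP1 at 3.73% and 14.2%. H4d4-14 thus kept more reads than H4R23A in each of these genes, with the smallest ratio between the strains at HHT2. URA3 went the other way and was far above wild type in both strains, at 2970% in H4R23A and 2730% in H4d4-14. The BY4741 column held only 335 URA3 reads, against 2551 in H4R23A and 1695 in H4d4-14. These percentages therefore rest on a small wild-type count and do not measure copy number. HIS3 stood at 84.7% and 112% in the same order, and LEU2 and MET17 held 35 reads or fewer in either strain. Whether wild-type DNA or reads stood in the H4d4-14 libraries was not tested, and every value of this strain is given with that limit. The intervals cover counting error only. The labels of the mutants do not say where the mutated H4 gene lies, and the mutations themselves could not be checked in these tables.

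Ligation between nucleosomes made up a smaller share of the H4d4-14 libraries. Same-direction pairs were 4.08% and 2.96% of all listed pairs in the 2 H4d4-14 replicates and 6.33% and 7.28% in H4R23A. The strains did not overlap, and both H4d4-14 values lay below all 16 wild-type replicates, which ran from 5.95% to 16.2% with a median of 9.64%. The H4-WT library had 6.81%, between the H4R23A replicates. The means were 3.52% ± 0.793 and 6.81% ± 0.672 (SD, n = 2 each), a difference of -3.29 percentage points, with an exact two-sided permutation p of 0.333, the smallest that 2 against 2 replicates allow.

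Depth and the way libraries were grouped bear on these shares. H4d4-14 held 17061352 and 7673776 listed pairs, H4R23A 18300832 and 14235792, and H4-WT 14698526. The column names carry a number that libraries of several strains share and that the headers do not explain. Replicate 1 of both mutants has number 12, as does 1 wild-type replicate, which had 5.95%. Within that number, H4d4-14 minus H4R23A was -2.25 percentage points. H4d4-14 replicate 2 (number 16) stood at 0.389 times the wild-type replicate of the same number, and replicate 1 at 0.686 times. The corresponding ratios of H4R23A were 1.06 (number 12) and 0.769 (number 20). The H4-WT library has number 11, which neither mutant shares, so strain and number cannot be told apart for that reference.

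Facing IN-IN pairs made up a larger share in H4d4-14. They were 92.8% and 94.7% of listed pairs in H4d4-14, 88.8% and 86.6% in H4R23A, with 87.6% in H4-WT. OUT-OUT pairs, which also need ligation, were 3.08% and 2.32% in H4d4-14 and 4.83% and 6.08% in H4R23A. Both H4d4-14 values lay below all 16 wild-type replicates, which began at 3.96%.

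The same-direction pairs of H4d4-14 also sat closer together. Pairs at 100 bp or less, shorter than the DNA of 1 nucleosome, were 16.4% and 22.9% of same-direction pairs in H4d4-14, against 12.1% and 11.1% in H4R23A and 9.85% in H4-WT. Both H4d4-14 replicates exceeded all 16 wild-type replicates, whose highest was 13.5%, while both H4R23A replicates lay inside that range. Pairs at 500 to 1000 bp, several nucleosomes apart, were 9.82% and 7.08% in H4d4-14, 12.2% and 10.3% in H4R23A, with 15.3% in H4-WT. The strains did not overlap, but the nearest values, 9.82% and 10.3%, were close.

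The reach ratio, log2 of pairs at 500 to 1000 bp over pairs at 100 to 500 bp, did not separate the strains. It was -2.56 and -3.04 in H4d4-14 and -2.26 and -2.57 in H4R23A, so that H4d4-14 replicate 1 lay just above H4R23A replicate 2. The difference of the means was -0.38, with an exact two-sided permutation p of 0.667. The H4-WT value of -1.82 was higher than all 4 mutant replicates and close to -1.85 in the wild-type replicate that shares its column number. Against wild-type replicates of the same number, the log2 difference was -0.38 and -0.81 in H4d4-14 and -0.09 and -0.24 in H4R23A. Counting all 4 orientations, which brings in unligated DNA, widened the difference of means to -1.39.

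**Figure D1:**
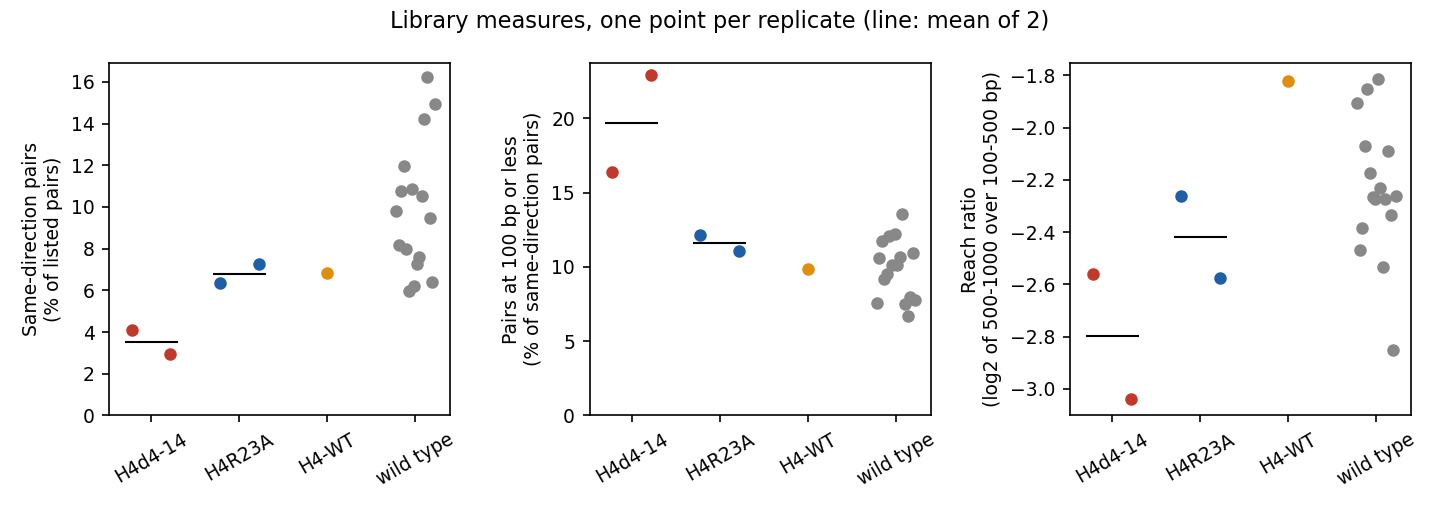
Each point is 1 replicate. The left panel shows same-direction pairs in % of listed pairs, the middle panel pairs at 100 bp or less in % of same-direction pairs, and the right panel the reach ratio (log2). H4d4-14 lies outside the wild-type range in the left and middle panels, while its reach ratios of -2.56 and -3.04 overlap those of H4R23A.

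Over 99 bins of 100 bp from 100 to 10000 bp, none passed edgeR's quasi-likelihood test after Benjamini-Hochberg adjustment (0% called, lowest adjusted p = 0.947), and 1 bin had an unadjusted p under 0.05. That bin was the nearest, 100 to 200 bp, with 343238 and 410755 per 1000000 binned pairs in H4d4-14, 301145 and 313222 in H4R23A, with 230148 in H4-WT. Its log2 difference was 0.30 ± 0.13 (SE), and it was the single bin (1.01%) in which both H4d4-14 replicates lay above both of H4R23A. All 16 bins between 400 and 2000 bp were lower in H4d4-14 by the fit, with log2 differences from -0.34 to -0.22. Of those, 6 had both H4d4-14 replicates below both H4R23A replicates, against 19.2% of all bins in that direction. The bins of a library are shares of the same total and are not independent. A larger share at 100 to 200 bp lowers the shares of the other bins. The 900 to 1000 bp bin held 12633 and 9215 per 1000000 in H4d4-14 and 15183 and 12523 in H4R23A, values that overlap slightly (log2 difference -0.34 ± 0.18). With TMM scaling over bins its log2 difference was -0.19. At 5000 to 5100 bp the replicates overlapped, with 1422 and 1125 per 1000000 in H4d4-14 and 1365 and 1555 in H4R23A.

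**Figure D2:**
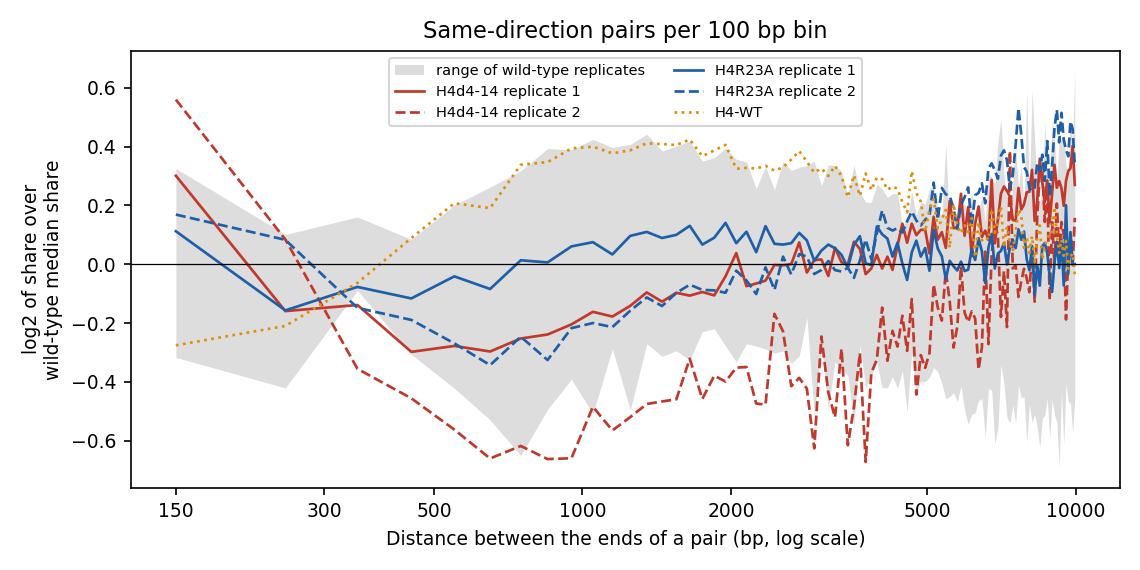
Share of same-direction pairs in each 100 bp bin, as log2 over the wild-type median, against distance (log axis); the grey band is the range of the wild-type replicates. H4d4-14 replicate 2 is the lowest of the 5 lines between 400 and 2000 bp, and H4d4-14 replicate 1 runs beside H4R23A replicate 2 from about 1000 to 2000 bp.

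Nucleosome spacing differed little between the strains. In IN-OUT profiles smoothed over 11 bp, the second peak lay at 320 and 325 bp in H4d4-14 and at 325 and 319 bp in H4R23A. It lay at 328 bp in H4-WT, and wild type ran from 316 to 332 bp. The next peak lay at 485 and 470 bp in H4d4-14 and at 484 and 473 bp in H4R23A. The first peak lay at 139 bp in H4d4-14 replicate 1, against 151 and 148 bp in H4R23A and 143 to 166 bp in wild type. H4d4-14 replicate 2 had no first peak inside the search window, since its profile declined from the shortest distances. The height of the peak near 320 bp over the trough before it was 2.37 and 1.71 in H4d4-14 and 2.30 and 1.90 in H4R23A.

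Contacts across nucleosome-depleted regions (NDRs), the gaps found mostly at promoters, were counted at 6719 NDRs. H4d4-14 held 533761 and 143815 such pairs, H4R23A 747007 and 877762, and H4-WT 748969. No NDR passed edgeR's quasi-likelihood test (0% called, lowest adjusted p = 0.978). At an unadjusted p under 0.05 edgeR gave 290 NDRs, and DESeq2 called 0 after adjustment and 257 before it. Both 290 and 257 are below a share of 0.05 of the 6719 NDRs, the share that this threshold gives with no difference anywhere. Without any test, both H4d4-14 replicates lay above both H4R23A replicates at 15.1% of NDRs and below them at 20.1%, and these shares are the background for the counts that follow. Neighbouring NDRs can be spanned by the same pairs, so none of these counts of NDRs is a count of separate measurements.

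The 5 NDRs with the lowest unadjusted p in each direction, chosen after their values were seen, show the sizes involved. The NDR of RRN11, which encodes a subunit of the RNA polymerase I core factor (chromosome XIII, 192034), led them with 308.0 and 434.4 CPM in H4d4-14, 139.3 and 177.5 in H4R23A, with 120.6 in H4-WT. CPM here means NDR-spanning reads per 1000000, with library sizes scaled by TMM. Both H4d4-14 values exceeded the wild-type maximum of 193.9 CPM (log2 difference 1.17 ± 0.33, SE, edgeR adjusted p = 0.978). The NDR of HSP10, the mitochondrial co-chaperonin gene (chromosome XV, 370990), had 66.7 and 108.6 CPM in H4d4-14 and 42.7 and 33.1 in H4R23A. The remaining 3 on the high side were those of YJL068C, of the divergent pair RLM1 and YPL088W, and of chromosome XIV, 577115, just past HHF2, which held few reads in both strains, with log2 differences of 0.80, 0.95 and 0.92.

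On the low side, the NDR of MRS6, the Rab escort protein gene (chromosome XV, 1031435), had 43.2 and 33.4 CPM in H4d4-14, 83.1 and 91.8 in H4R23A, with 70.6 in H4-WT. The NDR of EMP70, an endosomal membrane protein gene (chromosome XII, 296337), had 35.3 and 33.4 CPM in H4d4-14 and 79.8 and 68.6 in H4R23A. Those of YPR071W and VBA4 and the one at chromosome V, 186973, had log2 differences from -1.01 to -0.86. H4d4-14 replicate 2 rested on 3 to 13 reads at 9 of these 10 NDRs, and RRN11 was the exception with 52.

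A stretch of chromosome XIII around RRN11 stood out in both kinds of table. It lies between YML045W and YML039W, which are Ty1 retrotransposon genes, and holds RRN11, CAT2 (carnitine acetyltransferase) and VPS71 (a subunit of the SWR1 complex, which deposits the H2A variant Htz1). At 194810, between CAT2 and VPS71, H4d4-14 had 384.5 and 618.1 CPM, H4R23A 191.0 and 255.9, and H4-WT 164.1. At 196739, inside the Ty1 genes, the values were 484.6 and 701.7 in H4d4-14, 201.1 and 323.2 in H4R23A, with 156.5 in H4-WT. At 188528, inside YML045W on the other side, they were 672.9 and 960.6 against 394.3 and 526.5. The wild-type replicates ran from 114.5 to 318.1 CPM at 194810, below both H4d4-14 values. They ran from 119.4 to 584.7 at 196739 and from 291.7 to 765.3 at 188528. Only H4d4-14 replicate 2 lay above wild type at those NDRs. All 5 NDRs from 188247 to 196739 had both H4d4-14 replicates above both H4R23A replicates, with log2 differences from 0.73 to 1.17.

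Beyond the Ty1 genes, the 4 NDRs around YMD8 overlapped between the strains, with log2 differences from -0.09 to 0.06. The pooled gene columns showed a like division. RRN11 held 5735 reads in H4d4-14 and 4579 in H4R23A, a log2 difference of 0.80 relative to the median nuclear gene, CAT2 0.81 and VPS71 0.99. On either side, PRP39 (a splicing factor gene) stood at -0.06 and YMD8 at -0.01. Against wild type the same 3 genes stood at 0.82, 0.87 and 0.95 in H4d4-14 and at 0.03, 0.07 and -0.04 in H4R23A. Most of the difference between the mutants at these genes was thus on the H4d4-14 side. Reads of Ty1 copies can be assigned to the wrong element, so the values inside YML045W and YML039W are uncertain.

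**Figure D3:**
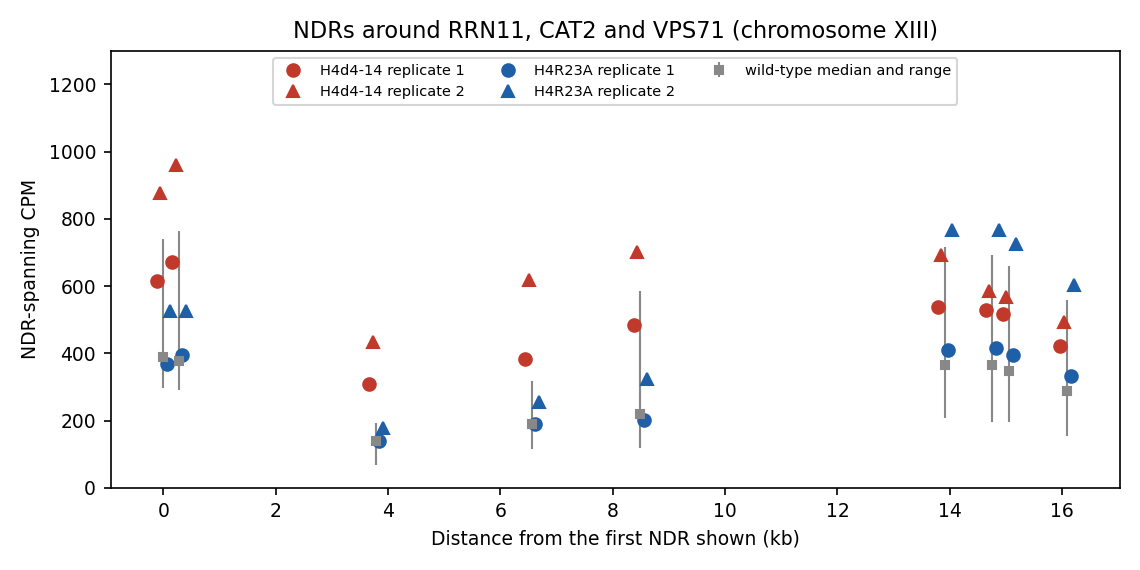
NDR-spanning CPM of each mutant replicate at 9 NDRs of chromosome XIII, placed by distance in kb from the first; grey squares and bars are the wild-type median and range. H4d4-14 lies above H4R23A at the 5 NDRs on the left (308.0 and 434.4 against 139.3 and 177.5 at RRN11), and the strains overlap at the 4 NDRs around YMD8 on the right.

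NDRs near chromosome ends stood on the high side in H4d4-14. The 338 NDRs within 20 kb of an end had a median log2 difference of 0.29, against -0.02 over the 6336 NDRs away from ends and from the rRNA genes. Of the 338, 99 (29.3%) had both H4d4-14 replicates above both of H4R23A, and 18 (5.33%) had them below. Neighbours among them are not separate measurements. The NDRs at chromosome VIII, 554346 and 554028, held 1277 and 1274 reads in H4d4-14 replicate 1. As a share of all NDR-spanning pairs, these NDRs took 10.2% and 12.1% in H4d4-14, 8.62% and 9.98% in H4R23A, with 7.00% in H4-WT. The wild-type replicates of the same numbers had 8.47% (number 12), 8.45% (number 16) and 10.0% (number 20), so both H4d4-14 replicates were above theirs, while both H4R23A replicates were close to theirs. The 16 wild-type replicates ran from 7.12% to 14.4% and covered all 4 mutant values. With replicate 1 of H4d4-14 alone, 41.7% lay above both H4R23A replicates, against 30.0% of all NDRs, and the median log2 difference was 0.17. It was 0.51 without H4d4-14 replicate 1, 0.15 without H4R23A replicate 1 and 0.46 without H4R23A replicate 2.

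Examples at the ends, chosen after their values were seen, include NDRs of unique genes as well as repeats. The NDR of ARR1, the regulator of arsenic resistance genes (chromosome XVI, 939107), had 209.9 and 292.4 CPM in H4d4-14, 120.2 and 173.9 in H4R23A, with 83.7 in H4-WT. The wild-type replicates ran from 83.7 to 266.6 CPM there, so only H4d4-14 replicate 2 lay above them. The NDR of IRC7, a cysteine-degrading lyase gene (chromosome VI, 263886), had 74.5 and 91.9 in H4d4-14 and 51.7 and 44.1 in H4R23A. At chromosome III, 1049, H4d4-14 had 98.1 and 142.0 CPM and H4R23A 27.0 and 61.2. The wild-type range there, 45.1 to 249.4 CPM, covered both H4d4-14 values, and H4R23A replicate 1 lay below it. In each of these 3 NDRs the replicates of the strains did not overlap. Seripauperins, a subtelomeric family of cell wall proteins, had a median log2 difference of 0.30 over 19 NDRs, 7 of them above and 1 below without overlap. At PAU21 the levels were 1063 and 1194 CPM in H4d4-14 and 602.1 and 908.5 in H4R23A. Many of these genes have near-identical copies, among which reads may have been split.

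NDRs around the rRNA gene array on chromosome XII also stood on the high side. The 45 NDRs within 20 kb of the annotated rRNA genes had a median log2 difference of 0.47, with 19 above and 2 below without overlap. They took 27.8% and 30.6% of NDR-spanning pairs in H4d4-14, 17.3% and 26.5% in H4R23A, with 20.0% in H4-WT. The wild-type replicates ran from 15.4% to 34.9% and covered all these values. Within number 12 the wild-type replicate had 24.6%, between the H4d4-14 and H4R23A libraries of that number. The median log2 difference was 0.18 without H4R23A replicate 1, 1.01 without its replicate 2 and 0.29 without H4d4-14 replicate 2. At TAR1, a gene encoded antisense to the 25S rRNA (chromosome XII, 454510), H4d4-14 had 42327 and 54153 CPM and H4R23A 19771 and 33781.

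Fitting the column-name number as a block, an alternative chosen after seeing the data, called 65 NDRs higher (0.967%) and 1 lower (0.0149%) in H4d4-14. Of the 65, 37 lay within 20 kb of a chromosome end, 10 within 20 kb of the rRNA genes and 18 elsewhere, the last including 3 of the chromosome XIII stretch. By level, 58 of the 65 were among the 1680 NDRs (of 6719) with the highest wild-type CPM. The lowest adjusted p was 0.00138, at chromosome XIII, 196739, in edgeR's quasi-likelihood test. The single NDR called lower lies inside EIS1, an eisosome gene (chromosome XIII, 333405). Of the 65, 30 had no overlap between the strains. The block shares only number 12 between the mutants and otherwise links them through wild-type and other libraries with the same numbers.

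Among the gene lists, ribosomal protein genes had the largest number of NDRs with separated replicates on the high side. By share, histone genes stood higher, at 44.4% of 9 NDRs. Of 101 ribosomal protein NDRs, 42 (41.6%) had both H4d4-14 replicates above both of H4R23A and 15 (14.9%) had them below. Over all NDRs these shares were 15.1% and 20.1%. The median log2 difference of ribosomal protein NDRs was 0.28. RPS6B, a small subunit gene, had 47.1 and 108.6 CPM in H4d4-14 and 31.5 and 29.4 in H4R23A, and the NDR shared by RPS16B and RPL13A had 43.2 and 66.8 against 19.1 and 25.7. RPL31A went the other way, with 25.5 and 33.4 CPM in H4d4-14 and 40.4 and 49.0 in H4R23A. In the order named, H4d4-14 replicate 2 rested on 13, 8 and 4 reads at these NDRs. Ribosome biogenesis genes, which are regulated with ribosomal proteins in growing yeast, had a median of -0.01 over 62 NDRs, with 8 above and 11 below. Within number 12 alone, 68.3% of ribosomal protein NDRs were higher in H4d4-14, against 47.3% of all NDRs.

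Genes of silencing itself did not stand on the high side. Over 14 NDRs of Sir proteins and telomere factors the median log2 difference was -0.13, with 1 above and 5 below. RIF2 encodes a telomere length regulator (chromosome XII, 1043432). Its NDR had 19.6 and 33.4 CPM in H4d4-14 (10 and 4 reads) and 42.7 and 51.4 in H4R23A (38 and 42 reads). That of YKU80, a subunit of the Ku end-binding complex (chromosome XIII, 480309), was the one above, with 111.8 and 83.5 against 76.4 and 67.3. Mating genes had a median of -0.05 over 21 NDRs, with 1 above and 6 below. SST2, which switches off the pheromone signal, was lowest with 23.5 and 8.35 CPM against 40.4 and 49.0. Its H4d4-14 values rest on 12 reads and 1 read, against 36 and 40 reads in H4R23A. The SST2 NDR (chromosome XII, 1041638) lies close to the RIF2 NDRs at 1043432 and 1043140, both of which were lower. The lowest members of the silencing and mating lists are thus neighbours, not separate loci. The 9 NDRs of histone genes had a median of 0.29, with 4 above and 0 below. Of those 4, 2 lie between HHT2 and HHF2 (0.91 and 0.69), the genes in which both strains held few reads and H4d4-14 the more, and the part of that in their values was not tested. HTZ1 was another, at 0.45. The 112 NDRs of subtelomeric genes had a median of 0.29, with 35 above and 7 below. The other lists of stress, metabolic, cyclin and proteasome genes had medians from -0.14 to 0.17.

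The kind of NDR mattered little elsewhere. NDRs within 200 bp of a contact boundary called by the authors in wild type had a median log2 difference of -0.02 (n = 2345), and the others -0.00 (n = 4374). NDRs at a gene start had 0.00 and the rest -0.01. NDRs within 500 bp of a tRNA gene had 0.16 (n = 181), with 33 above and 15 below without overlap.

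**Figure D4:**
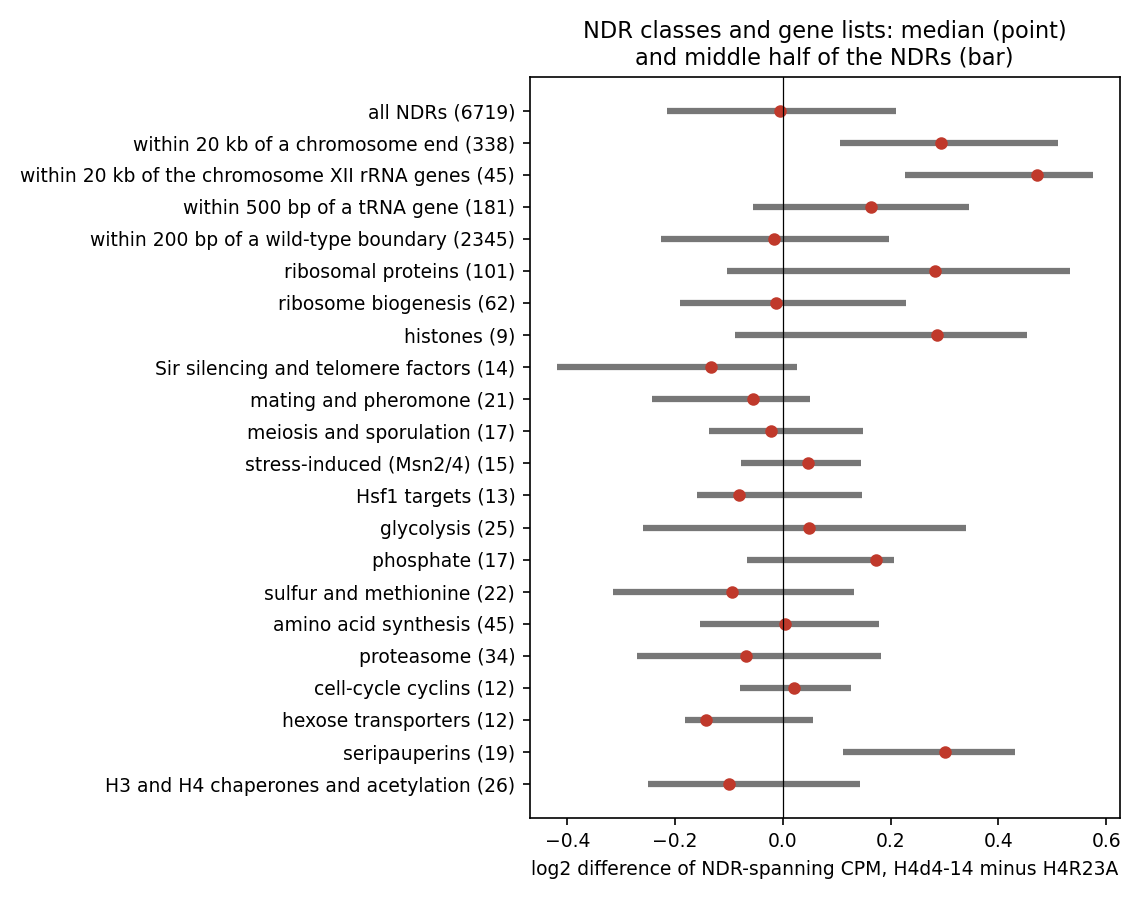
Median (point) and interquartile range (bar) of the log2 difference in NDR-spanning CPM, H4d4-14 minus H4R23A, for classes of NDRs and gene lists, with the number of NDRs in brackets. NDRs near chromosome ends (0.29), near the rRNA genes (0.47) and of ribosomal proteins (0.28) lie to the right of all NDRs (-0.01).

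The pooled gene tables list long and short fragments of each gene as signals, with 1 column per strain, so their differences have no replicate check and no test. Divided by the value of 1 read, the columns held 494514 long and 16928128 short reads in H4d4-14 and 1394417 long and 22687866 short reads in H4R23A. Long reads were 2.84% of the total in H4d4-14, 5.79% in H4R23A and 9.14% in wild type, the same order as the same-direction share of pairs. What follows uses 4725 nuclear genes over 750 bp with at least 100 reads in both columns.

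Reads per gene were close between the strains for most nuclear genes, with an SD of 0.137 in the log2 difference, centred on the median gene. At least 0.5 was reached by 17 genes (0.36%) and -0.5 or below by 4 (0.0847%). The 17 were CAN1 and HHT2, already described, the 3 genes of the chromosome XIII stretch, 7 genes of the Y' subtelomeric elements, and 5 highly expressed genes. The last were ILV5 (branched amino acid synthesis) at 0.76, ADH1 (alcohol dehydrogenase) at 0.59, TEF2 and TEF1 (translation elongation factor) at 0.56 and 0.55, and RPL4A at 0.50. The 4 low ones were YPL062W (-0.70), SHR5, a palmitoyltransferase subunit gene (-0.60), AIF1 (-0.57) and EMA35 (-0.54).

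Genes of protein synthesis and glycolysis mostly held more reads in H4d4-14, relative to the median nuclear gene. These reads are Micro-C fragments over each gene, most of them short, and do not measure expression. Of 120 ribosomal protein genes, 116 were above 0, against 50% of all nuclear genes, with a median of 0.21. Of 18 glycolysis genes, 16 were above 0 (median 0.26), with ENO2, an enolase gene, at 0.47 and TDH3, a glyceraldehyde-3-phosphate dehydrogenase gene, at 0.45. Of 32 proteasome genes, 26 were above 0 (median 0.10). Of 53 ribosome biogenesis genes, 12 were above 0 (median -0.06), with NOC3, a pre-ribosome transport factor gene, at -0.23. Relative to wild type, ribosomal protein genes had a median of 0.18 in H4d4-14 and -0.03 in H4R23A, and glycolysis genes 0.19 and -0.03. ADH1 with other dehydrogenases, TEF1 with TEF2 and many ribosomal protein pairs are near-identical copies, so their single values are uncertain.

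Subtelomeric repeats held more reads in H4d4-14 by the same measure, while subtelomeric genes as a group did not. Of 19 Y' element rows, 18 were above 0 with a median of 0.39, from 0.63 at the right end of chromosome IV to -0.45 in 1 row of the left end of chromosome XII. Relative to wild type their median was -0.04 in H4d4-14 and -0.43 in H4R23A, so the difference lay on the H4R23A side. The 145 subtelomeric genes had a median of 0.02, with 75 above 0.

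Mitochondrial DNA, which is not packaged in nucleosomes, was the list with the median difference in reads farthest from 0. All 17 mitochondrial genes that passed the same length and read limits were lower in H4d4-14, with a median log2 difference of -1.92 and a range from -2.12 (ATP6, an ATP synthase subunit gene) to -1.87. Several of the 17 are intron reading frames within COX1 and COB and share their DNA, so they are not separate measurements. COX1, the first subunit of cytochrome c oxidase, held 17455 reads in H4d4-14, 91172 in H4R23A and 128584 in the deeper wild-type column. COB, the cytochrome b gene, held 6888, 37929 and 56098. Mitochondrial genes took 0.538% of all gene reads in H4d4-14, 2.05% in H4R23A and 0.756% in wild type. Relative to wild type their median was -0.47 in H4d4-14 and 1.43 in H4R23A, so most of this gap lay on the H4R23A side.

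The deposited compaction score, which compares long with short fragments on a log2 scale, was slightly lower in H4d4-14 for most genes. The median difference over nuclear genes was -0.23, and 24.1% of genes were above 0. A difference of 1 or more was seen in 16 genes (0.339%) and of -1 or less in 35 (0.741%). The median difference was -0.10 in genes of 750 to 1000 bp (n = 819), -0.23 at 1500 to 2000 bp (n = 1014) and -0.35 at 3000 to 6000 bp (n = 484). The longest genes, over 6000 bp, had -0.15 (n = 35). By the centred log2 of long over short reads, the longest genes were instead the lowest, at -0.16, against -0.08 at 3000 to 6000 bp and 0.05 at 750 to 1000 bp. The lengths are those of the table, which for 19.2% of nuclear genes are shorter than the RefSeq interval.

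The 10 highest score differences were in genes with 82 long reads or fewer in either column. CAN1 led with 2.94, resting on 1 long read in H4R23A, where the gene is nearly absent. Next came YIR042C at 1.90, whose score was 1.28 in H4d4-14, -0.62 in H4R23A and 0.74 in wild type, and YOR203W at 1.71, which overlaps the HIS3 region and stood at 3.51 in wild type. OAZ1, the ornithine decarboxylase antizyme gene, had 1.39 with 28 and 35 long reads in H4d4-14 and H4R23A. HTZ1, the H2A variant gene, had 1.21 with 14 and 12 long reads, and its scores were -0.99 in H4d4-14, -2.19 in H4R23A and -1.67 in wild type. YPR012W (1.36), AAT1, a mitochondrial aspartate aminotransferase gene (1.33), PSF1 of the GINS replication complex (1.24), KEI1 (1.23) and the telomerase subunit gene EST3 (1.16) completed the 10 highest.

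Among all genes, 9 of the 10 lowest score differences were mitochondrial rows, from -3.27 at AI4 and -3.24 at COX1 to -1.93 at COX3, where H4d4-14 had 1 long read and H4R23A 119. The AI rows are intron reading frames of COX1 and BI4 is one of COB, so these 9 rows count much of the same DNA more than once. The tenth was YNR003W-A (-1.66). Of nuclear genes, named here after their values were seen, SMA1, a spore membrane assembly gene, followed at -1.32, SHR5 at -1.32 with 0 long reads in H4d4-14, and SHR3, an amino acid permease chaperone gene, at -1.30. ENA5, a sodium pump gene with near-identical neighbours, had -1.24. The 35 low genes had a median of 9 long reads in H4d4-14 and 42 in H4R23A.

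The lists are set against all nuclear genes, of which 24.1% had a score difference above 0 and the median was -0.23. Ribosomal protein genes had a median difference of -0.16, with scores of -1.09 in H4d4-14 and -1.01 in H4R23A, RPS12 highest at 1.09 and RPS25B lowest at -1.16. Of the 19 mating genes, 0 were above 0, with a median of -0.35 and FUS1, a cell fusion gene, lowest at -0.77. Of 13 genes of silencing and telomere factors, 0 were above 0, but their median of -0.18 was above that of all nuclear genes. Of 17 Hsf1 target genes, 0 were above 0, with a median of -0.28. The galactose list holds only 6 genes, of which 0 were above 0, and its median of -0.22 was close to that of all nuclear genes. Subtelomeric genes had a median of 0.01 and 74 of 145 above 0.

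**Figure D5:**
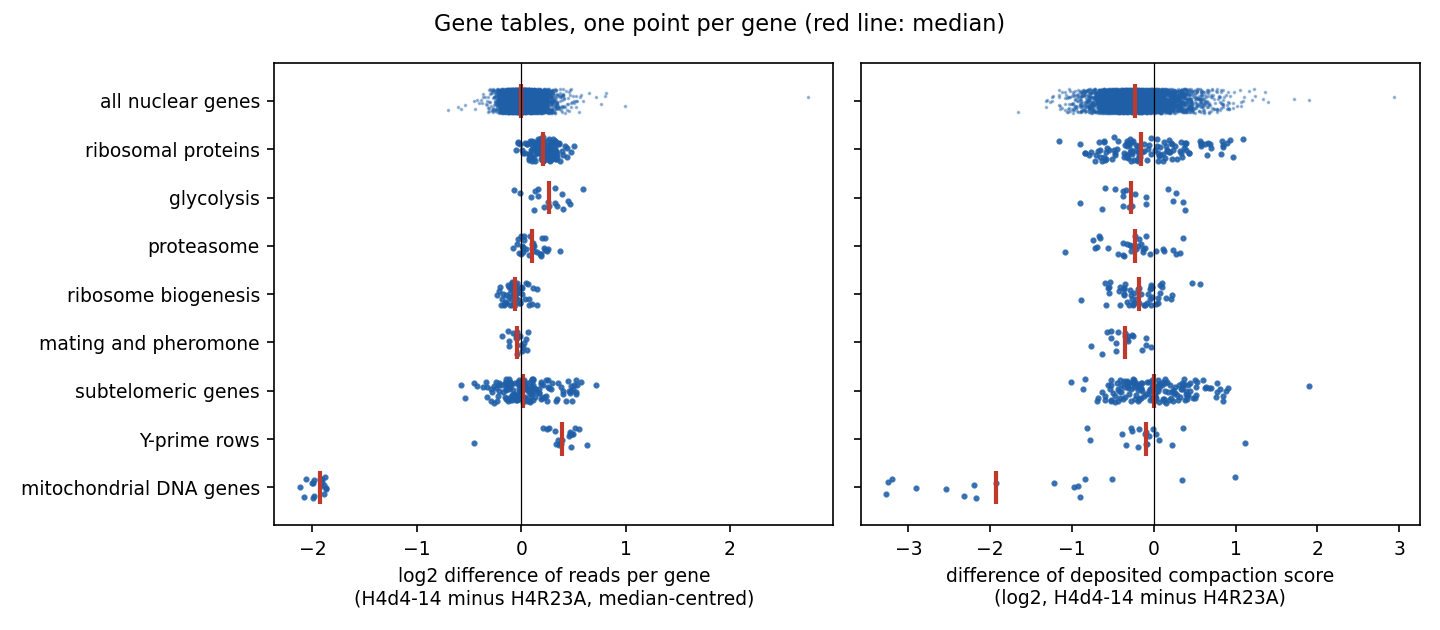
One point per gene for each list, with the median in red. The left panel shows the log2 difference of reads per gene and the right panel the difference of the compaction score, both H4d4-14 minus H4R23A. Mitochondrial genes lie near -1.92 in reads, and ribosomal protein and glycolysis genes lie to the right of 0 in reads but not in score.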

How the data were processed

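Micro-C libraries of Saccharomyces cerevisiae were examined from the tables the authors deposited, aligned to sacCer3 with Bowtie2 after CASAVA 1.8.2, per the submitters' processing notes. Per the file headers, whole-number counts of pairs were deposited by distance for 4 orientations and by NDR, without normalisation. The deposited gene tables hold a long and a short fragment signal and a 2D-normalised score read as log2, each pooled by the authors; the length limits of fragments are not given in the sources used here. Boundaries carry the authors' deposited strength score. Gene lengths come from the deposited table as another column. All values of the signal were whole multiples of 1 read within 0.05 reads.

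Columns were matched to strains by name, and 20, 6 and 8 sample columns of the NDR, each distance and each gene table were not used. Repeat libraries were summed. The labels name no separate cultures. The p-values therefore cover the spread among these replicates, which may be technical. Over NDRs the chi-square per degree of freedom was 1.45 to 2.79 between repeat libraries, 1.69 between the H4d4-14 replicates and 8.21 between those of H4R23A. Counts were fitted with edgeR 4.0.16 (TMM, filterByExpr, quasi-likelihood, two-sided) in R 4.3.3 over 49 replicates of 21 groups for NDRs and 48 for distance, with Benjamini-Hochberg adjustment at 0.05. DESeq2 1.42.0 was an alternative. An NDR took the name of a gene starting at most 500 bp downstream of it or 50 bp upstream, from a RefSeq table of the same assembly; chromosome ends are the ends of its last genes. CPM are per 1000000. Genes named from the NDR test were to be the 12 largest of each direction past it; none passed. In the gene tables the 10 highest and lowest differences and extremes of lists are named. The comparison, lists and classes were chosen with earlier results of these data known. The column-name number as a block, the alternatives to the same-direction share and the counts with H4d4-14 replicate 1 alone were chosen after seeing the data.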

Additional observations from a re-analysis of the deposited data

How the results depend on the processing

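The lower same-direction share of H4d4-14 kept its sign throughout: the difference ran from -3.85 to -2.73 percentage points with each replicate left out, was -3.38 for pairs over 100 bp, and -3.29 as the mean within replicate numbers (replicate block). The reach ratio difference kept its sign too, from -0.62 to -0.14 with each replicate left out and -0.38 under the replicate block. No distance bin passed with each replicate left out, with TMM scaling, with 200 bp bins, with single orientations, with only the 4 mutant replicates or with the column-name number as a block; with the replicate block on those 4 replicates 10 bins passed (1 higher, 9 lower). The 2 replicate numbers are not stated to pair cultures, and the deviations of equal numbers correlated at 0.165 over NDRs. No NDR passed with RLE, other library sizes or filters, without wild-type replicate 17, with DESeq2, or with each replicate left out (0 to 0). With only the 4 replicates 1 passed, with the replicate block 5, with the first library of each replicate 3 and with the column-name number as a block 66; the cause was not tested. The second ladder peak differed by 0.5 bp, and by -4.5 bp in the OUT-IN orientation.

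Scaling NDR counts to all listed pairs, most of them IN-IN, shifted the median NDR by -1.19, and values above 0 turned with it: -0.081 at RRN11, -0.44 at YJL068C, -0.32 at chromosome XIV, 577115, -0.10 at HSP10, -0.28 at RLM1, and at chromosome XIII -0.15 (196739), -0.18 (194810), -0.49 (188528) and -0.58 (188247). The medians became -0.93 near chromosome ends and -0.85 near the rRNA genes, both above the shifted median. Scaling to same-direction pairs shifted the median NDR by -0.24 and left medians of 0.02 and 0.10 in those classes. Genes with a score difference of at least 1 numbered 20 without a read minimum, 2 over 1500 bp and 42 by log2 of long over short reads; those at -1 or below numbered 35, 2 and 38. Depth limits most the second H4d4-14 replicate, where 1 read at an NDR is worth 8.35 CPM.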
